A study of Homo sapiens with 6 samples.

Results

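The AP-1 and EGR immediate early factors are a set of DNA-binding proteins most of whose genes are switched on soon after a growth signal, without the need for new protein synthesis. The set was fixed by name, with earlier results of these data known. It held 10 genes: FOS, FOSB, FOSL1, FOSL2, JUN, JUNB, JUND, EGR1, EGR2 and EGR3. Every probe set that the array's annotation gave to exactly 1 of these symbols was taken, whatever its values. That gave 21 of 54613 probe sets, which cover 9 of the 10 genes and 9 of the 19775 genes measured. For EGR2 no probe set is listed in the annotation used, and it was not analysed here. No filter on low values was applied, so all 21 probe sets were tested.

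FOS and JUN proteins carry a basic region that touches DNA and a leucine zipper that pairs them. FOS-family proteins need a JUN-family partner, JUN-family proteins can also pair among themselves, and the pairs, called AP-1, bind a short palindrome in the control regions of genes for growth, invasion and inflammation. EGR proteins bind a GC-rich site through zinc fingers. The classic route to both runs through the ERK kinases, which phosphorylate ternary complex factors such as ELK1 that sit with SRF on a promoter sequence called the CArG box or serum response element. In invasive breast cancer cells AP-1 is best known for driving matrix protease and cytokine genes.

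The data were 6 Affymetrix arrays of MDA-MB-231, a human breast cancer line without oestrogen receptor and of mesenchymal shape. For 3 arrays the cells had been transfected with an expression plasmid for HS3ST2, an enzyme that adds 3-O-sulfate to heparan sulfate, and for 3 with a control vector. All cells were cultured alike. The labels state neither serum conditions, nor the time between transfection and lysis, nor selection, cloning or how the replicates were made, so the p-values measure the spread between these arrays, which may be technical. The deposited values are log2 values in which the median of the 6 arrays is 0 for each probe set. A value therefore says how far an array lies from the middle of the 6, and the level of one gene cannot be set against that of another. Where the groups do not overlap, the innermost array of each lies at the same distance from 0 on either side for a single probe set.

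The median absolute difference between arrays was 0.100 to 0.122 within a group and 0.160 to 0.193 between groups (log2). HS3ST2 itself, with 1 probe set, had values of 0.16, 0.037 and -0.037 in the HS3ST2-labelled arrays, against -0.22, 0.17 and -0.11 in the control vector arrays. These overlapped (difference 0.11 ± 0.10 log2, SE, n = 3 per group, limma adjusted p = 0.523), and no source says if the plasmid's transcript carries this probe set's target, so directions rest on the labels. Ribosomal RNA probe sets, a sign of RNA preparation, had medians of 0.017, 0.16 and 0.74 in HS3ST2-labelled arrays 1 to 3, against -0.20, -0.060 and -0.29 in control vector arrays. The 3′ minus 5′ difference of the actin control probe sets was -0.056, 0.18 and 0.16 in HS3ST2-labelled arrays, against -0.21, 0.098 and -0.060 in control vector arrays. The part of either in the results was not tested. In RNA from whole cultures, fewer cells with a transcript and less of it per cell cannot be told apart. Because centring removed levels, it cannot be said whether the markers of the labelled cell type are present. Of the marker lists, 2 of 4 mesenchymal genes were called lower by limma (CD44 and VIM), while ZEB1 (-0.059 log2) and SPARC (-0.019) were not called. Of 5 luminal genes 1 was called higher (KRT18), while KRT8 (0.18), GATA3 (0.13), ESR1 (0.094) and EPCAM (-0.076) were not called. Of 4 leukocyte genes 1 was called higher (LCP1). None of 5 fibroblast genes was called by limma, or had an unadjusted p under 0.05 (0 genes). Over all genes 11.5% were called higher and 13% lower, so these few calls are a description.

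Of the 9 genes, EGR1 and EGR3 were higher in the HS3ST2-labelled arrays, FOSL2 was lower, and 6 did not pass an adjusted p of 0.05 by limma fitted over all genes. Over all 19775 genes the same rule called 24.5%, with 11.5% higher and 13% lower, so 3 calls among 9 is a count close to the background. The groups did not overlap for 4 of the 9 (the called genes and FOS), against 40.4% of all genes. The largest differences among the 9 were near 0.4 log2 in size, and by size FOSL2 ranked 1709, EGR3 1848 and EGR1 1977 among all genes. The median difference of the 9 was -0.0092, beside 0.0088 over all genes (log2).

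**Figure D1:**
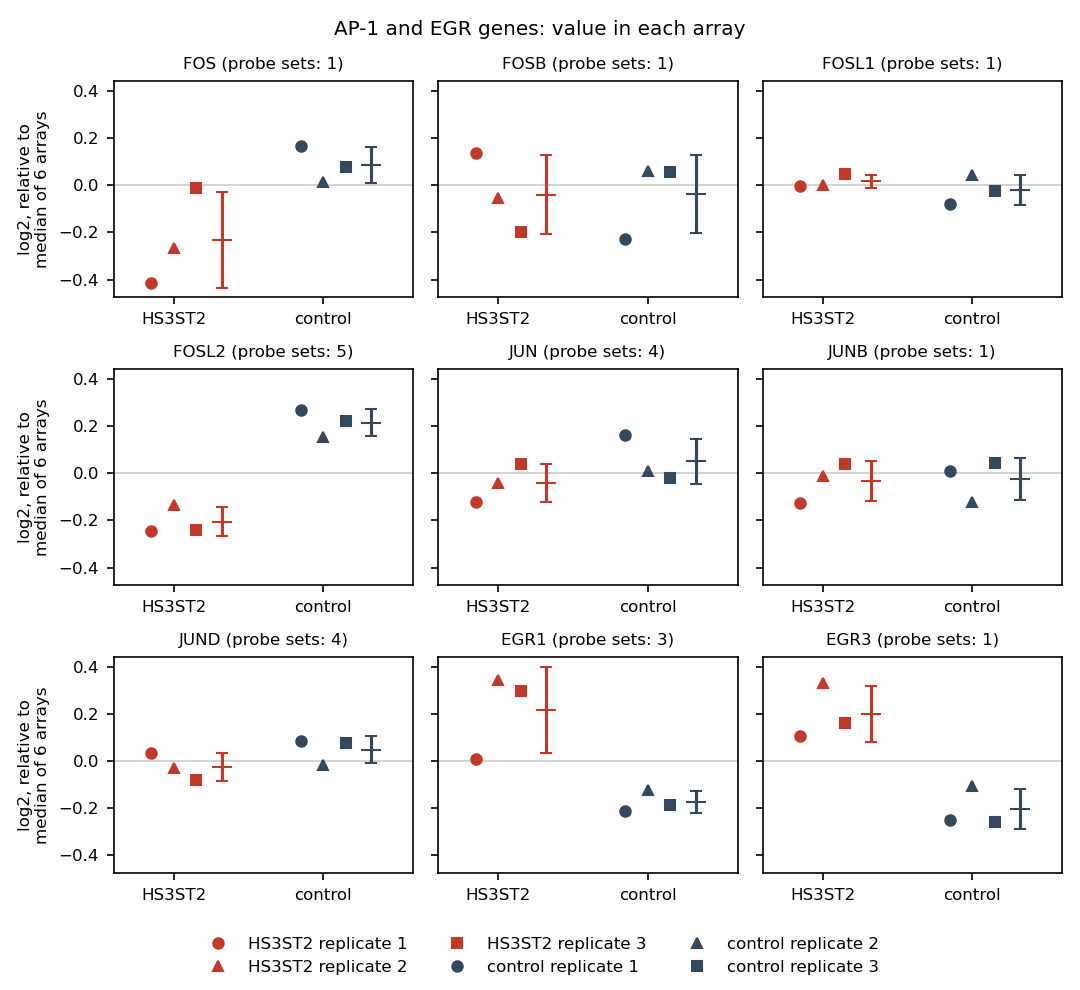
Value of each gene in each of the 6 arrays, as log2 relative to the median of the 6, averaged over the gene's probe sets. HS3ST2-labelled arrays are red and left, control vector arrays dark and right; the bar beside them is the mean ± SD of the 3 arrays. FOSL2 and FOS lie lower and EGR1 and EGR3 higher in the HS3ST2-labelled arrays with no overlap, while the other 5 genes overlap.

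The sequence just upstream of 4 of these genes is shown so that the promoter of a gene that rose (EGR1) can be read beside one that fell (FOSL2) and the pair of genes that gave AP-1 its name (FOS and JUN). Each is the 250 bases before the annotated start, 5′ to 3′ on the gene's own strand, from RefSeq on GRCh38.p14. The windows are chr5:138465229-138465478 (EGR1, plus strand), chr2:28392608-28392857 (FOSL2, plus strand), chr14:75278578-75278827 (FOS, plus strand) and chr1:58784048-58784297 (JUN, minus strand). Capitals mark matches, on either strand, to the CArG box, the AP-1 site TGANTCA, the cyclic AMP response element TGACGTCA, its short core TGACG, which the full element contains on both strands, and the EGR site GCGNGGGCG.
EGR1: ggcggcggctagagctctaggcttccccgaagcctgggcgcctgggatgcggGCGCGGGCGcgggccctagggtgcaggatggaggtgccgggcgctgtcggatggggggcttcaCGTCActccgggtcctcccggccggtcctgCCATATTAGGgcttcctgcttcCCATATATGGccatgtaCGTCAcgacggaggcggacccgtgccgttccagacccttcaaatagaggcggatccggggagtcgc
FOSL2: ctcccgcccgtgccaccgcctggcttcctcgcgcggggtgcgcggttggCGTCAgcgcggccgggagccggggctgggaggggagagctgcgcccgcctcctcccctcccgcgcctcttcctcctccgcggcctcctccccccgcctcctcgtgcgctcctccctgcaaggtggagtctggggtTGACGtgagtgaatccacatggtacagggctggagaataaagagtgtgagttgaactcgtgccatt
FOS: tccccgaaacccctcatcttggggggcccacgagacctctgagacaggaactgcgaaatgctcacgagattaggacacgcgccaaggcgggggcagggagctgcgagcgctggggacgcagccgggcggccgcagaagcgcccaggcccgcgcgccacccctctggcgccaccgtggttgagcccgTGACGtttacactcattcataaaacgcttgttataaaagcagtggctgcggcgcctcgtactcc
JUN: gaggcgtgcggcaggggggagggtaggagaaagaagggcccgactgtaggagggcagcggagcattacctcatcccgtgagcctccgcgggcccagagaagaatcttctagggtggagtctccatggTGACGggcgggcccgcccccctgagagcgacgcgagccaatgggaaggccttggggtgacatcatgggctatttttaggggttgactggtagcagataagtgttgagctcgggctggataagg
In the EGR1 window there were 2 CArG boxes, CCATATTAGG starting 105 bases and CCATATATGG starting 83 bases before the start, where 1.16% of 35116 windows of this length held any. The EGR1 window also held an EGR site, GCGCGGGCG, starting 198 bases before the start; 8.42% of windows held one. FOSL2 had 2 TGACG cores, starting 201 and 66 bases before the start, FOS had 1 starting 64 bases before it, and JUN had 1 starting 123 bases before it. A TGACG core was present in all 7 members whose window was read (these 4, FOSB, JUNB and JUND), against 21.2% of all windows. The windows of the remaining members were not read, so these counts do not describe the whole set. No window of the 7 held TGANTCA, which 6.57% of windows held. These are matches of letters, not shown to be bound sites. Variants of these letters were not searched or marked, such as tgacatca in the JUN window, which is close to TGACGTCA. Sequence more than 250 bases before the start was not read. A gene without a CArG box or other match here can therefore hold one farther upstream, or a variant of it within the window.

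FOSL2 encodes FRA-2, a FOS-family protein without the strong activation domain of FOS. Its gene value was -0.24, -0.13 and -0.24 in the HS3ST2-labelled arrays, against 0.27, 0.15 and 0.22 in the control vector arrays. Every HS3ST2-labelled array lay below every control vector array. FOSL2 differed by -0.42 ± 0.059 log2 (SE, n = 3 per group; 95% interval -0.56 to -0.28), a 1.34-fold lower value, with a limma adjusted p of 0.00153. It stayed called when any 1 array was left out, at -0.46 to -0.39.

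All 5 FOSL2 probe sets lay below 0, but by different amounts, from -0.88 to -0.20 log2. The probe set 218880_at gave -0.44, -0.42 and -0.47 in HS3ST2-labelled arrays, against 0.42, 0.42 and 0.46 in control vector arrays. Its replicates lay close together, with SDs of 0.022 in HS3ST2-labelled and 0.025 in control vector arrays. Its difference of -0.88 ± 0.061 (SE), a 1.84-fold lower value, had the smallest limma adjusted p of the 21 probe sets (1.36e-04). Probe set 218881_s_at differed by -0.51 ± 0.14, with control vector array 1 at 0.66 and the other control vector arrays at 0.089 and 0.30. It lost its call without any 1 array other than control vector array 2, and so did 205409_at (-0.31 ± 0.072, limma adjusted p = 0.0233) without control vector array 2 or 3 or HS3ST2-labelled array 2 or 3. The remaining probe sets, 225262_at (-0.21 ± 0.078) and 228188_at (-0.20 ± 0.094), were not called by limma (adjusted p = 0.124 and 0.218). The 95% interval of 218880_at, -1.02 to -0.74, did not overlap that of 225262_at, -0.39 to -0.025, so the probe sets of FOSL2 differed in size of change among themselves. The stretch of transcript that each of them reads was not analysed here.

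FOS encodes c-Fos, the prototype of the family. Its single probe set was at -0.41, -0.27 and -0.013 in the HS3ST2-labelled arrays, against 0.17, 0.013 and 0.077 in the control vector arrays. The HS3ST2-labelled arrays were all lower, but they were spread widely, and the third lay next to the controls. The difference of -0.32 ± 0.10 log2 (SE, n = 3 per group; 95% interval -0.55 to -0.084) did not pass (limma adjusted p = 0.0547). It passed in 1 of the 6 fits with an array left out, at -0.43 without HS3ST2-labelled array 3 (limma adjusted p = 0.00993), where ribosomal RNA probe sets were highest, whose part in this was not tested. The smallest difference was -0.23 without HS3ST2-labelled array 1 (limma adjusted p = 0.143).

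FOSB and FOSL1 gave no detectable difference. FOSB, a partner of JUN proteins best known from neurons, was at 0.14, -0.055 and -0.20 in HS3ST2-labelled arrays, against -0.23, 0.060 and 0.055 in control vector arrays. Both groups straddled 0 (difference -0.0016 ± 0.11 log2, SE; 95% interval -0.25 to 0.25). FOSL1 encodes FRA-1, the FOS-family protein most tied to invasive breast cancer lines. It was at -0.0016, 0.0016 and 0.048 in HS3ST2-labelled arrays, against -0.079, 0.045 and -0.025 in control vector arrays. Its difference of 0.036 ± 0.055 had a 95% interval of -0.091 to 0.16. For the value of this single probe set, that leaves out a change as large as that of FOSL2 in either direction. Since levels were removed, it cannot be said whether the probe set is bright enough to follow the transcript.

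None of the 3 JUN genes was called by limma, or had an unadjusted p under 0.05 (0 genes). JUN, the strongest activator of the family, was at -0.12, -0.043 and 0.039 in HS3ST2-labelled arrays, against 0.16, 0.0082 and -0.019 in control vector arrays. The groups overlapped (difference -0.092 ± 0.070 log2, SE; 95% interval -0.25 to 0.070; limma adjusted p = 0.403). JUNB, which can damp JUN activity, was at -0.13, -0.011 and 0.039 in HS3ST2-labelled arrays, against 0.011, -0.12 and 0.042 in control vector arrays. Its difference was -0.0092 ± 0.069, with a 95% interval of -0.17 to 0.15. JUND, the member of the family with the steadiest expression in resting cells, was at 0.034, -0.028 and -0.082 in HS3ST2-labelled arrays, against 0.087, -0.018 and 0.078 in control vector arrays. JUND overlapped too, with a difference of -0.074 ± 0.058 (95% interval -0.21 to 0.060).

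The probe sets of JUN and JUND were not uniform. For JUN, 3 probe sets lay between -0.035 and -0.010 log2, while 201465_s_at was at -0.29 ± 0.15 (SE) with control vector array 1 at 0.50 and the other control vector arrays at 0.025 and -0.025. For JUND, 203751_x_at and 214326_x_at were at -0.21 and -0.20, and 203752_s_at and 229117_s_at were at 0.056 and 0.061. In Affymetrix names the ending _x_at marks probes that can share signal with other sequences, and _s_at marks probes common to several transcripts. None of these 8 probe sets was called by limma or had an unadjusted p under 0.05 (0 probe sets).

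EGR1 encodes the most widely induced zinc finger factor of the set. Averaged over its 3 probe sets it was at 0.0076, 0.34 and 0.30 in the HS3ST2-labelled arrays, against -0.21, -0.12 and -0.19 in the control vector arrays. All HS3ST2-labelled arrays lay above the controls, but the first stood apart from the other 2. EGR1 differed by 0.39 ± 0.090 log2 (SE, n = 3 per group; 95% interval 0.18 to 0.60), 1.31-fold higher, with a limma adjusted p of 0.0156. The call was lost without control vector array 1 (0.37, limma adjusted p = 0.0505), HS3ST2-labelled array 2 (0.33, adjusted p = 0.0515) or HS3ST2-labelled array 3 (0.35, adjusted p = 0.0547).

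The probe sets of EGR1 differed in their calls. Probe set 201694_s_at gave 0.16, 0.41 and 0.44 in HS3ST2-labelled arrays, against -0.16, -0.22 and -0.21 in control vector arrays. Probe set 227404_s_at gave 0.12, 0.36 and 0.28 in HS3ST2-labelled arrays, against -0.49, -0.12 and -0.33 in control vector arrays. Neither overlapped between groups, and both were called (0.54 ± 0.088 and 0.57 ± 0.11 log2, SE; limma adjusted p = 0.00511 and 0.0109). Both calls held when any 1 array was left out. The other, 201693_s_at, gave -0.26, 0.26 and 0.17 in HS3ST2-labelled arrays, against 0.017, -0.032 and -0.017 in control vector arrays, and was not called (0.066 ± 0.13). All 3 end in _s_at, so EGR1 has no value when such probe sets are left out.

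EGR3 encodes a related zinc finger factor that ERK signalling can induce. The sequence upstream of EGR3 was not read, so the promoter matches given above do not cover this gene. Its single probe set was at 0.11, 0.33 and 0.16 in the HS3ST2-labelled arrays, against -0.25, -0.11 and -0.26 in the control vector arrays. The groups did not overlap, and the lowest HS3ST2-labelled array was again the first. EGR3 was 1.32-fold higher, with a difference of 0.40 ± 0.076 log2 (SE, n = 3 per group; 95% interval 0.23 to 0.58; limma adjusted p = 0.00623). This gene-level call held with any 1 array left out, at 0.34 to 0.45. In the fit over probe sets, where more features are tested, it was called with all arrays (limma adjusted p = 0.0152) and not without control vector array 1 (0.0505) or 3 (0.0534).

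**Figure D2:**
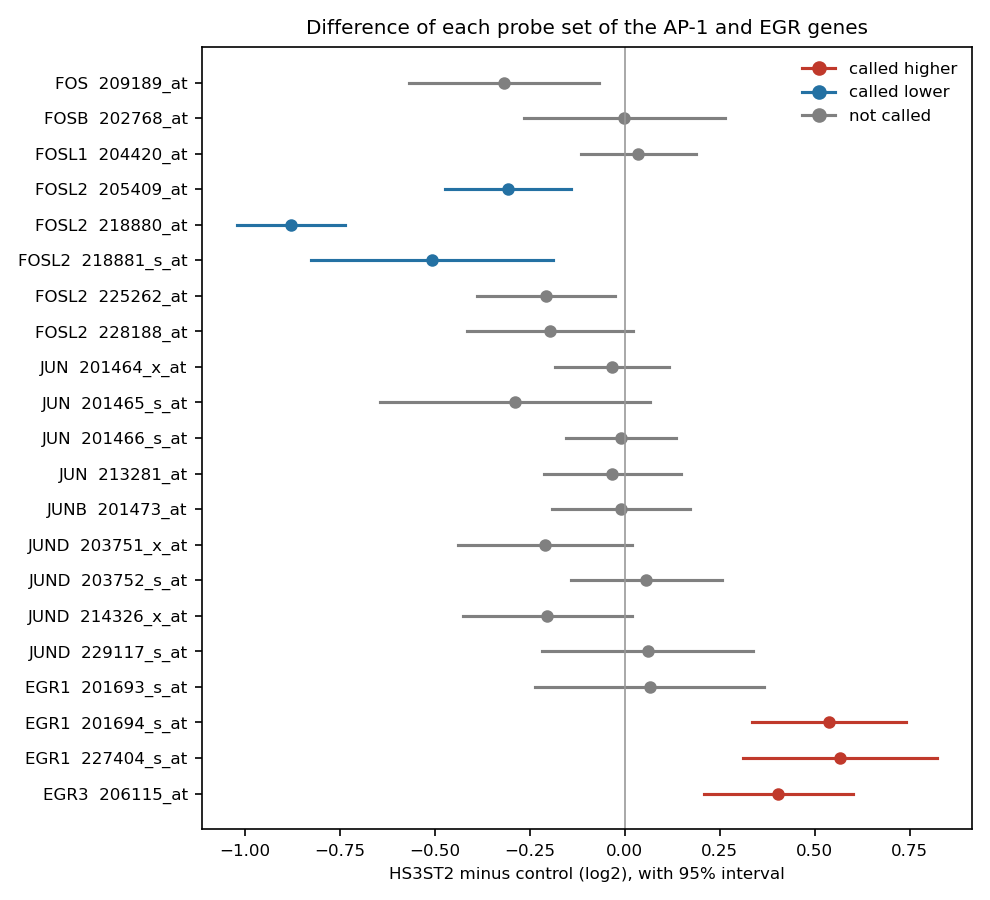
Difference, HS3ST2 minus control, of each of the 21 probe sets with its 95% interval from limma (log2). Points are coloured by the call at an adjusted p under 0.05: 3 probe sets were called higher (EGR1 and EGR3) and 3 lower (all FOSL2), and those of FOSL2 spread from -0.88 to -0.20.

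Among the 21 probe sets, 3 were called higher and 3 lower by limma, against 7.9% higher and 8.98% lower (16.9% in all) over all 54613 probe sets. The 6 calls came from FOSL2, EGR1 and EGR3. FOS, FOSB, FOSL1, JUNB and EGR3 are each read by 1 probe set, so the array holds no second reading of them.

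**Figure D3:**
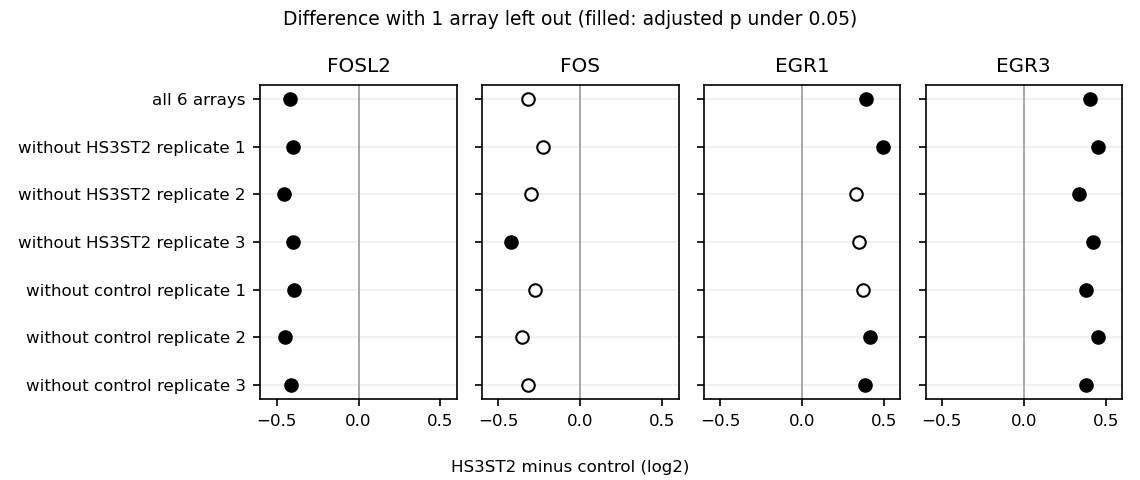
Difference of FOSL2, FOS, EGR1 and EGR3, HS3ST2 minus control (log2), with all 6 arrays and with each array left out in turn. Filled points have an adjusted p under 0.05: FOSL2 (-0.46 to -0.39) and EGR3 (0.34 to 0.45) stay filled, EGR1 is open in 3 of the 6, and FOS is filled only without HS3ST2-labelled array 3.

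For the 3 called genes, the genes with the most similar values over the 6 arrays were found by Euclidean distance on the log2 scale. Nearest to FOSL2 were C1QBP (distance 0.050), ELAVL1 (0.050) and UGT8 (0.055). Nearest to EGR3 were EAF1 (0.066), SUCLA2 (0.092) and SERPING1 (0.094), and nearest to EGR1 were L3MBTL3 (0.11), NANOS1 (0.13) and TRAPPC2 (0.14). EGR1 and EGR3 were not among each other's 3 nearest. With 2 groups of 3 arrays, such likeness mostly repeats the size of the group difference.

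Of the other bZIP factors that pair or compete with AP-1, 10 of 12 listed were measured. By limma 1 rose, 2 fell and 7 did not pass, a count close to the background of 11.5% higher and 13% lower over all genes, and the median difference was -0.011 log2. JDP2, a repressor that pairs with JUN, rose by 0.46 ± 0.069 (SE, n = 3 per group; limma adjusted p = 0.00205), but its probe sets gave 0.86 and 0.067. ATF7, a relative of ATF2, fell by 0.32 ± 0.052 (limma adjusted p = 0.00318) through 2 of its 5 probe sets, at -0.94 and -0.91, while the other 3 lay between 0.044 and 0.16. ATF3, itself a stress-induced immediate early factor, fell by 0.24 ± 0.059 (limma adjusted p = 0.0198). In this list 1 gene in place of 2 was called lower without control vector array 2 or 3 or HS3ST2-labelled array 1 or 3.

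Of 4 genes tied to EGR function 1 fell and 1 rose by limma, where 13% of all genes were lower and 11.5% higher. The median of the 4 was -0.020 log2. WT1, a zinc finger factor that binds EGR-like sites, fell by 0.81 ± 0.091 log2 (SE; limma adjusted p = 5.31e-04), with probe sets at -1.27 and -0.35, both ending in _s_at. NAB1, a corepressor that binds EGR proteins, rose by 0.30 ± 0.071 (limma adjusted p = 0.0163), with called probe sets at 0.72 and 0.42 and others at 0.14 and -0.065. Its call was lost when probe sets ending in _s_at were left out, and without control vector array 1 or 2 or HS3ST2-labelled array 1 or 2. The related corepressor NAB2 (-0.13 ± 0.083) and EGR4 (0.094 ± 0.061) did not pass (limma adjusted p = 0.297 and 0.323).

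In a list of other immediate early genes more were lower than higher. The list was chosen with earlier results of these data known, so its counts beside the background are a description. Of 31 measured of 32 listed, 12 fell, 3 rose and 16 did not pass by limma, with a median of -0.084 log2 beside 0.0088 over all genes, where 13% fell and 11.5% rose. The GTP-binding protein gene GEM fell by 0.93 ± 0.052 (SE, n = 3 per group; limma adjusted p = 2.17e-05). GEM was at -0.51, -0.43 and -0.52 in HS3ST2-labelled arrays, against 0.45, 0.43 and 0.45 in control vector arrays, with no overlap. MYC, a growth-promoting transcription factor, fell by 0.66 ± 0.051, and PTGS2, the inducible prostaglandin synthase, by 0.60 ± 0.049 over probe sets at -0.68 and -0.51. GADD45B, a stress sensor, rose by 0.71 ± 0.055, with all 4 probe sets called higher. Leaving out names with an _x_at or _s_at ending kept 24 genes, of which 6 were called lower and 1 higher.

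Of 12 factors that act on immediate early promoters, 2 rose, 3 fell and 7 did not pass by limma, where 11.5% of all genes were higher and 13% lower. The median of the 12 was -0.085 log2. MEF2A and MEF2C, relatives of SRF, rose by 0.32 ± 0.059 and 0.37 ± 0.074 (SE; limma adjusted p = 0.00549 and 0.00852), while MEF2D fell by 0.21 ± 0.056 (limma adjusted p = 0.0319). ETS1, a target of ERK, fell by 0.23 ± 0.058 (limma adjusted p = 0.0238), although its 3 probe sets did not pass alone, at -0.37 to -0.13. All 3 lower calls were lost without control vector array 1 or 3 or HS3ST2-labelled array 3.

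Of 14 measured of 22 listed genes of the MAP kinase cascade, 2 rose, 1 fell and 11 did not pass by limma, a count close to the background of 11.5% higher and 13% lower. The median of the 14 was -0.060 log2. RPS6KA3, which encodes the ERK-activated kinase RSK2, rose by 0.41 ± 0.057 (SE; limma adjusted p = 0.00141), and both of its probe sets were called. MAPK9, which encodes the JUN kinase JNK2, rose by 0.17 ± 0.051 (limma adjusted p = 0.0403). With any 1 array left out, 1 gene of the list was called higher, and 1 to 3 were called lower, with 3 without control vector array 1. The GTPase gene HRAS fell by 0.44 ± 0.074 (limma adjusted p = 0.00372).

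Of 26 listed targets of AP-1 and EGR factors, 23 were measured, of which 10 fell, 4 rose and 9 did not pass by limma. Over all genes 13% were lower and 11.5% higher. This list too was chosen with earlier results of these data known, so its counts are a description. The median of the 23 was -0.19 log2, beside 0.0088 over all genes. The interstitial collagenases MMP13 and MMP1 rose by 2.14 ± 0.11 and 1.61 ± 0.066 (SE, n = 3 per group; limma adjusted p = 1.79e-05 and 7.19e-06). IL6, an inflammatory cytokine, and ICAM1, an adhesion molecule for leukocytes, fell by 1.10 ± 0.058 and 0.70 ± 0.062 (limma adjusted p = 1.79e-05 and 1.79e-04). As gene values, these differences in single targets were larger than any in the 9 AP-1 and EGR genes, which lay between -0.42 and 0.40. MMP13, MMP1 and IL6 are each read by 1 probe set. The value of FOSL2 averages 5 probe sets, of which 218880_at alone differed by -0.88, more than ICAM1. Leaving out names with an _x_at or _s_at ending kept 14 genes, of which 5 were called lower and 3 higher.

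**Figure D4:**
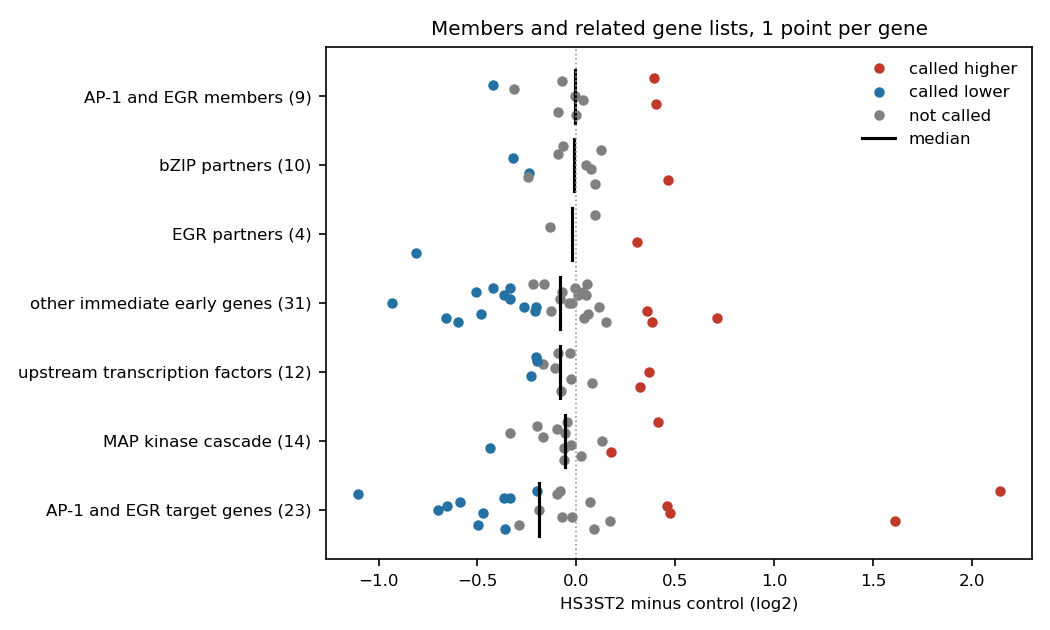
Difference of each gene, HS3ST2 minus control (log2), for the 9 AP-1 and EGR genes and 6 related lists, with the number of genes measured in brackets, the call by colour and the median as a line. The 9 genes lie between -0.42 and 0.40, while target genes reach from -1.10 to 2.14.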

How the data were processed

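Total RNA of 6 arrays was labelled and hybridised to an Affymetrix array, and per the submitters' processing notes the values came from RMA. The deposited log2 values are centred by probe set, so that the 6 arrays have a median within 4.8e-07 of 0, and the base of the logarithm, not stated, was taken as 2. Arrays give no counts; their number limits the precision. Control probe sets (62) were set aside. GEO's platform annotation gave 1 symbol to 41091 probe sets, several to 1801 and none to 11721; 41037 matched a current record. Probe sets of a gene were averaged, giving 19775 genes. HS3ST2-labelled and control vector arrays were compared with limma 3.58.1 (lmFit, eBayes, R 4.3.3) over all genes and over all probe sets, with Benjamini-Hochberg adjustment. The script was tested on simulated data. Named genes are all members, HS3ST2, up to 4 called genes per list with the smallest p, all genes of the 4-gene list, and the 3 genes nearest to each of the 3 called members. Members and lists were chosen with earlier results of these data known. Dim probe sets could not be filtered, since levels are gone. Same-numbered replicates did not deviate together (correlations 0.15, 0.041 and -0.083), so numbers were not treated as pairs. Alternatives tried were the replicate number as a block, arrays left out in turn, quantile normalization, median centring, array weights, robust or no moderation, other thresholds, probe sets without _x_at or _s_at, and the probe set of largest SD.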

Additional observations from a re-analysis of the deposited data

How the results depend on the processing

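The direction of FOSL2, FOS, EGR1 and EGR3 was the same under every alternative run, and FOSL2 and EGR3 kept their calls as genes under all of them except a minimum of 0.5 log2, under which 0 genes were called higher and 0 lower among the 9, against 2 and 1. EGR1 was not called at an adjusted p under 0.01 or without moderation (0.39 in both, limma adjusted p = 0.0156 and unmoderated adjusted p = 0.0906), which left 1 of 9 called higher. Leaving out the _x_at and _s_at probe sets left 1 of 7 called higher, since EGR1 and JUND then have no value. Over left-out arrays the difference of EGR1 was 0.33 to 0.49 and that of FOS -0.43 to -0.23, with 1 to 2 of the 9 called higher and 1 to 2 lower, and 2 to 3 probe sets higher and 1 to 2 lower. With the probe set of largest SD FOSL2 was at -0.88 and EGR1 at 0.57. Called higher was 1 probe set, not 3, without _x_at and _s_at probe sets, at an adjusted p under 0.01 and without moderation, and 1, not 3, was called lower at that threshold. With the replicate number as a block, 1 of the 21 probe sets was lower in place of 3, and no call of the 9 genes changed. Over all genes, 1285 were higher and 1555 lower at an adjusted p under 0.01, 542 and 615 with a minimum of 0.5 log2, and 1667 and 1661 without _x_at and _s_at probe sets, where 17098 genes were tested, against 2274 and 2571. The counts called in the 6 related lists moved with the settings, for the other immediate early genes from 4 to 14 lower and from 1 to 4 higher, and for the target genes from 4 to 12 lower and from 2 to 5 higher. With 3 arrays per group and no levels, a difference whose interval includes 0 cannot be told from none.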

Other observations

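The arrays did not contribute evenly to the spread of these genes. In 14 of the 21 probe sets control vector array 1 was the farthest of its group from the group's median, against 39.8% of all probe sets, and HS3ST2-labelled array 1 was the farthest of its group in 11 of 21, against 34% of all. Control vector array 1 also had the widest spread over all probe sets (interquartile range 0.213 log2, against 0.165 to 0.185 in the other 5 arrays). It stood far above the other control vector arrays in 218881_s_at of FOSL2 (0.66), 201465_s_at of JUN (0.50) and 203751_x_at of JUND (0.36). In 227404_s_at of EGR1 (-0.49), 202768_at of FOSB (-0.23) and 203752_s_at of JUND (-0.22) it stood below them. These single probe sets were named after their values were seen.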
